A study of Homo sapiens with 6 samples.

Results

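The 10 genes described here, PKM, LDHA, LDHB, SLC16A1, SLC16A3, PDHA1, PDHB, PDK1, PDK3 and MPC1, encode the enzymes and carriers that make pyruvate at the end of glycolysis, turn it into lactate, move it across membranes or feed it into the mitochondrion. They were taken as a list by gene symbol out of 57905 genes in the deposited count table. No measured value entered the rule of the list, but earlier results of these data were known when the genes were chosen. All 10 passed the filter on low counts, SLC16A3 only through its THZ1-treated libraries. SLC16A3 therefore had to differ, and its call is no support. The RNA-SEQ libraries came from NALM6, a human cell line of B cell precursor acute lymphoblastic leukemia, and 3 were from cells kept for 24 h with the solvent DMSO and 3 from cells kept for 24 h with 500 nM of THZ1, a covalent inhibitor of the kinase CDK7. A single line was sequenced, and the labels do not say whether the libraries of a treatment came from separate cultures, so the p-values measure the spread between these libraries, which may be technical. The study names LDHA and PDHA among the genes lowered in the same libraries, and PKM2 among the enzymes that THZ1 lowered. Its heatmaps of metabolic genes may hold others of the 10 genes, such as PDHB. The values of these genes are therefore not independent of that choice.

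Pyruvate kinase, encoded by PKM, makes pyruvate, which stands at a branch point. Lactate dehydrogenase reduces it to lactate while oxidising NADH, and the monocarboxylate transporters carry lactate and pyruvate across the plasma membrane together with a proton. Alternatively, the mitochondrial pyruvate carrier brings pyruvate into the matrix, where the pyruvate dehydrogenase complex converts it to acetyl-CoA. Pyruvate dehydrogenase kinases phosphorylate and switch off this complex, and phosphatases switch it on again. Proliferating leukemia cells are known for sending much of their pyruvate to lactate even when oxygen is present.

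The count totals on genes were 11015480 to 11164840 in the DMSO-treated and 7876402 to 8314306 in the THZ1-treated libraries. Levels are given as CPM, counts scaled to library size after TMM scaling (which takes most genes as level between samples), and 3 counts, used as the floor of detection, correspond to 0.246 to 0.253 CPM with DMSO and 0.394 to 0.415 CPM with THZ1, a limit for counting error only. CPM are relative to the other RNA of a library, and in bulk RNA fewer cells of a kind and less RNA per cell cannot be told apart. Every one of the 10 B cell precursor markers checked was above the floor, but their summed level was 3410 to 3640 CPM with DMSO and 1800 to 1830 CPM with THZ1. Of the markers of other cell types, 4 of 4 myeloid markers were above the floor in at least 1 library (3.88 to 4.59 CPM in sum with DMSO and 17.0 to 18.0 with THZ1), and they did not move together, with CD14 at 0.636 ± 0.0885 and 8.71 ± 1.10 CPM, CSF1R at 0.111 ± 0.0475 and 6.08 ± 1.58, LYZ at 2.48 ± 0.646 and 1.39 ± 0.767 and MPO at 1.08 ± 0.348 and 1.20 ± 0.374. So were 2 of 3 fibroblast markers (11.3 to 12.9 and 18.5 to 20.6 CPM in sum), COL1A1 at 3.71 ± 0.592 and 15.7 ± 0.283 CPM and PDGFRB at 8.16 ± 0.561 and 4.002 ± 0.961, and 1 of 4 T cell markers (0 to 0.165 and 0.267 to 0.969). Of the erythroid markers (at most 0.526 CPM in sum) and the epithelial markers (at most 0.138), 0 of 3 each were above the floor, with 1 marker of each list at 0 in every library. The part of these differences in the results was not tested.

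THZ1 treatment lowered 9 of the 10 genes and raised 1, SLC16A3 (edgeR's quasi-likelihood test, Benjamini-Hochberg adjusted p below 0.05). Over all 16622 genes tested, 41.1% were lower and 43.5% higher by the same rule (6826 and 7224 genes), a balance that turned with the scaling, to 7985 lower and 6319 higher with library sizes alone and 5976 lower and 7977 higher with upper quartile factors. The 9 genes that fell passed the filter on low counts in both treatments, as did 12701 genes in all, of which 47.2% were lower and 35.2% higher. SLC16A3 passed it only through THZ1, and 98.1% of the 2785 such genes were called higher. Among the 10156 genes with a mean of at least 10 CPM, a background chosen after the data were seen, 50.6% were lower, and all 8 of the 10 genes in that range were. A fall of at least 1.5 on the log2 scale was met by 4 of the 10 genes, LDHA, MPC1, PDHB and PDK1, against 12.9% of all genes tested and 12.1% of those of at least 10 CPM. LDHB (−1.46) and PDHA1 (−1.47) lay just short of that size. The number of genes past it depended on the scaling. With library sizes alone LDHB (−1.71) and PDHA1 (−1.72) reached it, and with upper quartile factors PDK1 (−1.39) did not. The median log2 fold change of the 10 genes was −1.46, against 0.03 for all genes tested (middle range −0.90 to 1.46) and −0.23 for genes of at least 10 CPM. By the separation of libraries, 8 of the 10 genes had every THZ1-treated library below every DMSO-treated library, against 41.3% of all genes, and 1 had every one above, against 43.4%. PDK3 was the gene whose libraries overlapped.

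**Figure D1:**
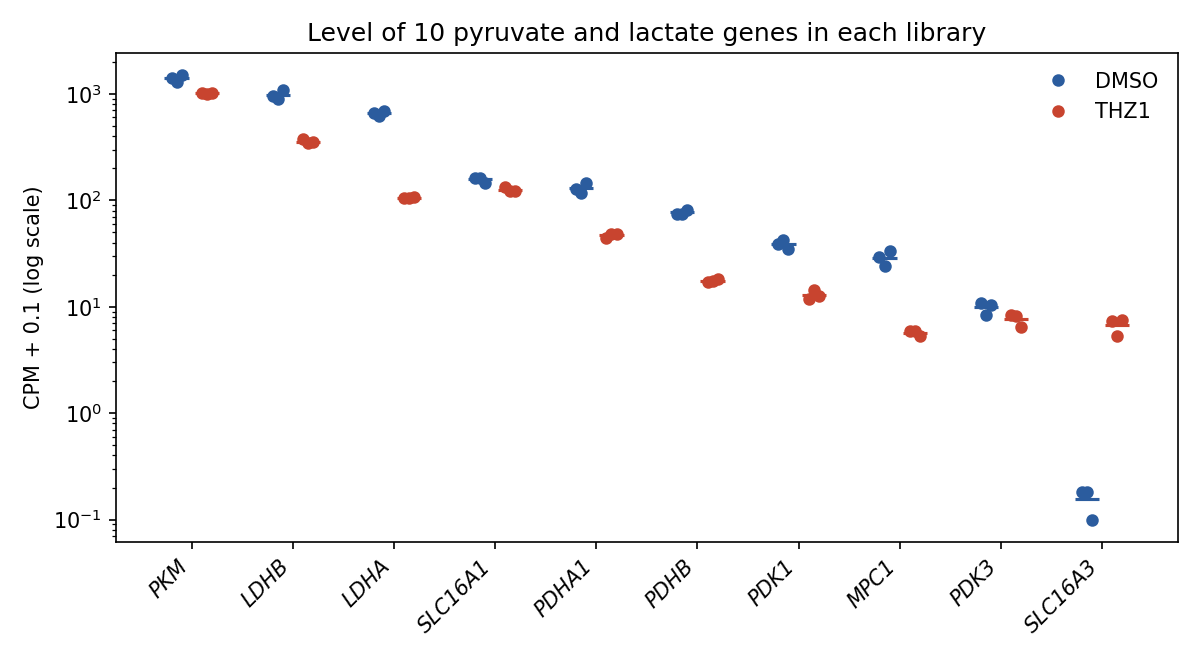
Level of each of the 10 genes in each library, in CPM after TMM scaling on a log axis, with DMSO-treated and THZ1-treated libraries as separate points. The treatments do not overlap for 9 genes, and LDHA drops from 620.7 to 683.1 CPM to 104.5 to 106.9 CPM, whereas PDK3 overlaps.

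**Figure D2:**
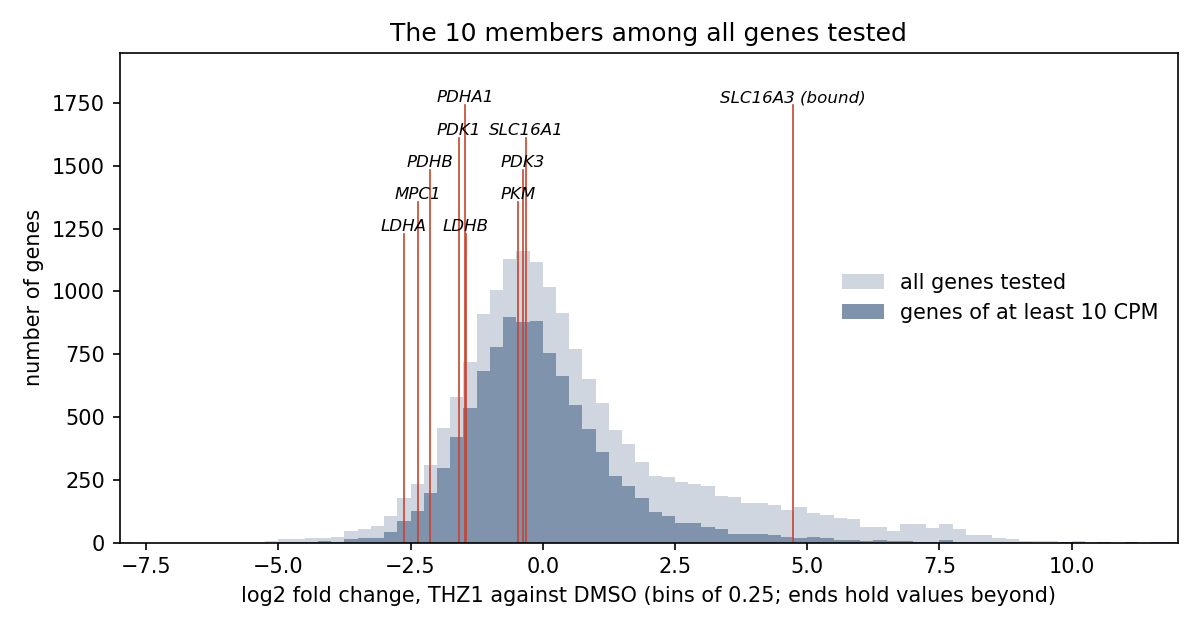
Log2 fold changes of the 10 genes (red lines) over the distribution of all genes tested and of genes of at least 10 CPM, as numbers of genes in bins of 0.25. LDHA, MPC1, PDHB and PDK1 lie beyond −1.5, PKM, PDK3 and SLC16A1 lie near the centre, and SLC16A3 is drawn at its lower bound of 4.73.

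Pyruvate kinase and lactate dehydrogenase differed in how far they fell. PKM (chromosome 15, 72491370 to 72524160 on the minus strand, GRCh37 as all gene positions here) stood above 99.7% of the genes tested with DMSO. It had 1407, 1299 and 1497 CPM in the DMSO-treated libraries and 1014, 989.5 and 1025 CPM in the THZ1-treated libraries. It kept 72.0% of its level, at a log2 fold change of −0.47 (standard error, SE, 0.07, and adjusted p = 1.8e-07, edgeR). The THZ1-treated libraries were all below the DMSO-treated libraries, by less than in lactate dehydrogenase. The counts are summed over the gene, so the M1 and M2 isoforms of PKM, which differ by a single alternative exon, cannot be separated.

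LDHA, which encodes the M subunit of lactate dehydrogenase (chromosome 11, 18416107 to 18429972, plus strand), had the largest fall of the 10 genes. It was at 660.2, 620.7 and 683.1 CPM with DMSO and at 105.5, 104.5 and 106.9 CPM with THZ1. The 3 THZ1-treated libraries were nearly level with each other and kept 16.1% of the DMSO level, a log2 fold change of −2.63 (SE 0.07, adjusted p = 7.4e-25, edgeR). Of all genes tested, 2.82% had a log2 fold change as low or lower. LDHB, which encodes the H subunit (chromosome 12, 21788276 to 21910791, minus strand), was more abundant, with 952.9, 898.7 and 1086 CPM with DMSO and 373.3, 342.2 and 351.7 CPM with THZ1. It kept 36.3% of its level, with a log2 fold change of −1.46 (SE 0.07, adjusted p = 5.3e-18, edgeR). Both subunits therefore fell, LDHA further than LDHB, and together they went from 1634 ± 126 to 461 ± 16.2 CPM (SD, n = 3 libraries each), or 28.2% of the DMSO level.

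The composition of lactate dehydrogenase transcripts shifted between the treatments. Divided by transcript length, LDHA made up 28.7, 28.6 and 26.8% of the LDHA and LDHB transcripts in the DMSO-treated libraries and 14.1, 15.1 and 15.02% in the THZ1-treated libraries. The ratio of LDHA to LDHB counts within a library, which does not depend on library scaling, was −0.58 ± 0.08 with DMSO and −1.75 ± 0.06 with THZ1 on the log2 scale. It differed by −1.17 (SE 0.06), a 2.26-fold lower ratio, with no overlap of the libraries. An exact two-sided permutation test gave p = 0.1, which is the smallest p that 3 libraries against 3 allow.

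Promoter sequence is shown for LDHA and PDHB, the genes of the list with a CACGTG box, for LDHB as the partner of LDHA, and for SLC16A3 as the gene that rose. The windows are the 250 bases before a transcript start in RefSeq (GRCh38.p14, a later build than that of the counts), read along the gene's strand, and 9 of the 10 genes had an entry, with 15 windows in all, SLC16A1 being the one that had none. LDHA has 2 windows and SLC16A3 has 5, for different starts, and the one printed is in each case the one with matches. Capitals mark CACGTG, the E-box to which MYC and related factors can bind, and ACGTG or its reverse complement CACGT, the core of the element to which hypoxia-inducible factors can bind. LDHA is at chr11:18394313-18394562 on the plus strand, PDHB at chr3:58433833-58434082 on the minus strand, LDHB at chr12:21657843-21658092 on the minus strand and SLC16A3 at chr17:82228792-82229041 on the plus strand.
LDHA: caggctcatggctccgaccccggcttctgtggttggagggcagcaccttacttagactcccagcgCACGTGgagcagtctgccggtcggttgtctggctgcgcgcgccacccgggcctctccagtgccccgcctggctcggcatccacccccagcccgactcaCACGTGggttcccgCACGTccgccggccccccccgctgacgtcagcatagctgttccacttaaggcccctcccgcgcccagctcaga
PDHB: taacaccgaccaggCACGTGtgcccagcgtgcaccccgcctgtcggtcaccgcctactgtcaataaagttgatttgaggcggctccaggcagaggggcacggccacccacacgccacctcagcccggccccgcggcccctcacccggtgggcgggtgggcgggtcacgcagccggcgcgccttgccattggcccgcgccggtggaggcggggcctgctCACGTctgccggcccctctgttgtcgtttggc
LDHB: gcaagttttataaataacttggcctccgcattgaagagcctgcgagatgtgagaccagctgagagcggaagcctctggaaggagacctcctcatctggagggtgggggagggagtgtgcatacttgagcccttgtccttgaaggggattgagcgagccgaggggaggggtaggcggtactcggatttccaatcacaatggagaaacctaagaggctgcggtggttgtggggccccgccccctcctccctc
SLC16A3: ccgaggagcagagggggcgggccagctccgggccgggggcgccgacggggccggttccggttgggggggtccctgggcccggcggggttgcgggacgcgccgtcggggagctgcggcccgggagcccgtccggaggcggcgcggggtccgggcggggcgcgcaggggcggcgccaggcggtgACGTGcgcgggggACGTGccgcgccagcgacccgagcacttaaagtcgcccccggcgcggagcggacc

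The printed LDHA window holds 2 E-boxes, 185 and 87 bases before the start, and the PDHB window holds 1, 236 bases before the start, whereas the LDHB window has none of the capitals' motifs and the printed SLC16A3 window has ACGTG at 2 places but no CACGTG. The second LDHA window (chr11:18396101-18396350) and the other 4 windows of SLC16A3 have neither CACGTG nor ACGTG. The letters CACGTG contain ACGTG on both strands, so the motifs overlap. Over the 9 genes with windows, CACGTG was found in 2, against 7.73% of 27305 genes in the table, and in 2 of 15 windows against 6.34% of 35116. ACGTG on either strand was found in 5 genes, LDHA, PDHB, PDK1, PDK3 and SLC16A3, against 21.7% of all genes (18.5% of windows). GCGTG on either strand, the other form of the hypoxia element core, was found in 6 genes, LDHA, MPC1, PDHA1, PDHB, PDK3 and SLC16A3, against 36.2% of genes (32.2% of windows). A match of letters is not evidence of binding. For MYC and HIF1A, given as known regulators of several of these genes, MYC fell from 638.9 ± 27.0 to 86.1 ± 7.03 CPM (log2 fold change −2.89, SE 0.08, adjusted p = 3.2e-25, edgeR) and HIF1A rose from 117 ± 14.4 to 161 ± 4.87 CPM (0.46, SE 0.08, adjusted p = 3.7e-06, edgeR).

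The plasma membrane transporters stood at very different levels. SLC16A3 passed the filter on low counts only through THZ1, so its direction was set by that filter and makes no contrast with SLC16A1. SLC16A1 encodes the monocarboxylate transporter MCT1 (chromosome 1, 113454469 to 113500215, minus strand) and had 161.5, 162.5 and 146.3 CPM with DMSO and 132.4, 122.5 and 123.1 CPM with THZ1. Its libraries did not overlap, but it kept 80.4% of its level, and the log2 fold change was −0.32 (SE 0.07, adjusted p = 0.00019, edgeR). That is near the median of −0.23 for genes of at least 10 CPM. With upper quartile factors in place of TMM the log2 fold change of SLC16A1 was −0.12 with an adjusted p of 0.12 by edgeR. On the opposite strand of the gene SLC16A1-AS1 rose from 69, 70 and 73 counts to 149, 139 and 134 (log2 fold change 1.69, adjusted p = 7.6e-12, edgeR), and the pseudogene AKR7A2P1 had 1 to 2 counts with DMSO and 28 to 43 with THZ1. The strand setting of the counting is not given in the sources used here, so reads of these pairs could have been shared.

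SLC16A3 encodes MCT4 (chromosome 17, 80175810 to 80219005, plus strand), a transporter known mainly for exporting lactate. It was at 1, 1 and 0 counts in the DMSO-treated libraries, under the floor of 3 counts, and at 55, 38 and 55 counts in the THZ1-treated libraries (7.23, 5.26 and 7.35 CPM). Against the floor of 3 counts per library it was at least 26.6-fold higher with THZ1. Even so, its 6.62 ± 1.17 CPM with THZ1 were far below the 126 ± 5.55 CPM of SLC16A1. CSNK1D, a kinase gene that overlaps it on the opposite strand, had 1433 to 1595 counts with DMSO and 1301 to 1455 with THZ1, and its log2 fold change was 0.58 (adjusted p = 6.5e-09, edgeR). Just before the start of SLC16A3, the non-coding gene ENSG00000264548 had 0, 0 and 1 counts with DMSO and 4, 3 and 12 with THZ1. Whether reads of these genes entered the SLC16A3 count was not tested.

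BSG encodes basigin, the chaperone that takes both transporters to the membrane, and EMB embigin, a related chaperone. BSG rose from 258 ± 23.9 to 600.3 ± 24.2 CPM (log2 fold change 1.22, SE 0.07, adjusted p = 2.8e-16, edgeR), whereas EMB fell from 55.3 ± 8.05 to 28.5 ± 1.41 CPM (−0.96, adjusted p = 7.5e-10). SLC16A7, which encodes MCT2, was at 3 to 5 counts with THZ1 and 13 to 15 with DMSO.

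Transcripts of the mitochondrial carrier and of the dehydrogenase were lower with THZ1. MPC1 encodes a subunit of the mitochondrial pyruvate carrier (chromosome 6, 166778407 to 166796501, minus strand) and had 29.1, 24.0 and 33.0 CPM with DMSO and 5.79, 5.81 and 5.21 CPM with THZ1. It kept 19.5% of its level, with a log2 fold change of −2.35 (SE 0.16, adjusted p = 5.3e-15, edgeR). Its obligate partner MPC2 fell too, from 41.1 ± 6.42 to 19.5 ± 2.05 CPM (−1.07, SE 0.12, adjusted p = 9.1e-10, edgeR). The ratio of MPC1 to MPC2 counts within a library went from −0.52 ± 0.11 to −1.80 ± 0.07 on the log2 scale, a difference of −1.28 (SE 0.07) with no overlap (exact permutation p = 0.1, the smallest possible).

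PDHA1 and PDHB encode the alpha and beta subunits of the first enzyme (E1) of the pyruvate dehydrogenase complex. PDHA1 (chromosome X, 19362011 to 19379836, plus strand) had 126.9, 117.8 and 145.2 CPM with DMSO and 44.3, 48.2 and 48.3 CPM with THZ1, and its log2 fold change was −1.47 (SE 0.09, adjusted p = 2.6e-16, edgeR). PDHB (chromosome 3, 58413357 to 58419584, minus strand) had 74.4, 74.99 and 81.5 CPM with DMSO and 17.1, 17.2 and 18.1 CPM with THZ1, and its log2 fold change was −2.14 (SE 0.10, adjusted p = 3.9e-19, edgeR). Both sets of libraries were well apart, with 36.1% of the PDHA1 level and 22.7% of the PDHB level kept. Although the subunits join in equal numbers, the ratio of PDHA1 to PDHB counts rose on the log2 scale from 0.75 ± 0.09 to 1.43 ± 0.06, a difference of 0.68 (SE 0.06; exact permutation p = 0.1, the smallest possible). On the opposite strand of PDHB the non-coding gene ENSG00000272182 fell from 287 to 314 counts to 8 to 27 (log2 fold change −3.21, adjusted p = 2.4e-15, edgeR), and MAP3K15 overlaps PDHA1 (−0.43, adjusted p = 0.027).

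The other subunits of the complex fell as well. PDHX, the E3 binding protein, went from 22.2 ± 0.691 to 6.25 ± 1.37 CPM (log2 fold change −1.83, SE 0.16, adjusted p = 2.2e-12, edgeR). DLAT, the E2 acetyltransferase, went from 83.9 ± 5.06 to 46.2 ± 3.12 CPM (−0.86, SE 0.09, adjusted p = 8.6e-11), and DLD, the E3 dehydrogenase, from 120.3 ± 3.04 to 56.8 ± 1.86 CPM (−1.08, SE 0.08, adjusted p = 3.2e-14). All 5 subunit genes named were lower by the test, PDHB by the most and DLAT by the least in log2 fold change. Of the 12701 genes that passed the filter in both treatments, as these 5 did, 47.2% were lower.

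Of the kinases that switch the complex off, PDK1 and PDK3 were lower in the counts, PDK1 by more, with the call of PDK3 near the threshold. PDK4, too scarce to be tested, was not lower. PDK1 (chromosome 2, 173420101 to 173473397, plus strand) had 38.7, 41.8 and 34.7 CPM with DMSO and 11.8, 14.1 and 12.4 CPM with THZ1, 33.3% of its level, with a log2 fold change of −1.59 (SE 0.12, adjusted p = 1.4e-13, edgeR). PDK3 (chromosome X, 24483361 to 24568583, plus strand) had 10.8, 8.28 and 10.4 CPM with DMSO and 8.28, 8.03 and 6.28 CPM with THZ1. THZ1-treated library 1 lay just above DMSO-treated library 2, and the log2 fold change of −0.38 (SE 0.18) was near the threshold, with an adjusted p of 0.046 by edgeR. That call did not hold without DMSO-treated library 1 (−0.33, adjusted p = 0.14, edgeR), without DMSO-treated library 3 (−0.36, 0.066) or without THZ1-treated library 3 (−0.28, 0.19), and the other settings under which it was lost are given with the limits. The ratio of PDK1 to PDK3 counts went from 1.97 ± 0.32 to 0.77 ± 0.24 on the log2 scale, a difference of −1.20 (SE 0.23) and a 2.3-fold lower ratio, without overlap (exact permutation p = 0.1, the smallest possible). In the deposited FPKM values the difference of that ratio was smaller, −0.46. PDK1-AS1, on the opposite strand of PDK1, fell from 113 to 169 counts to 29 to 40 (−1.31, adjusted p = 3.1e-07, edgeR).

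PDK2 fell from 14.4 ± 1.51 to 8.43 ± 1.40 CPM (log2 fold change −0.77, SE 0.16, adjusted p = 5.7e-05, edgeR), and the summed level of PDK1, PDK2 and PDK3 went from 62.6 ± 2.62 to 28.8 ± 2.94 CPM, 45.9% of the DMSO level. PDK4 was too scarce to be tested, with 0, 0 and 2 counts with DMSO and 8, 4 and 7 with THZ1. On the phosphatase side PDP1 rose from 12.8 ± 0.929 to 22.0 ± 2.82 CPM (0.78, SE 0.13, adjusted p = 2.7e-06, edgeR). PDP2 (20.6 ± 2.79 and 21.1 ± 3.52 CPM, log2 fold change 0.03, SE 0.13) and the regulatory subunit PDPR (93.9 ± 17.3 and 99.0 ± 7.74 CPM, 0.08, SE 0.10) did not pass the test, and their direction and call depended on the setting. PDP2 was called lower with limma on the deposited log2 values (−0.48, adjusted p = 0.028), PDPR was called higher with upper quartile factors (0.27, adjusted p = 0.010, edgeR) and without DMSO-treated library 2 (0.20, 0.020), and both turned negative with library sizes alone.

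**Figure D3:**
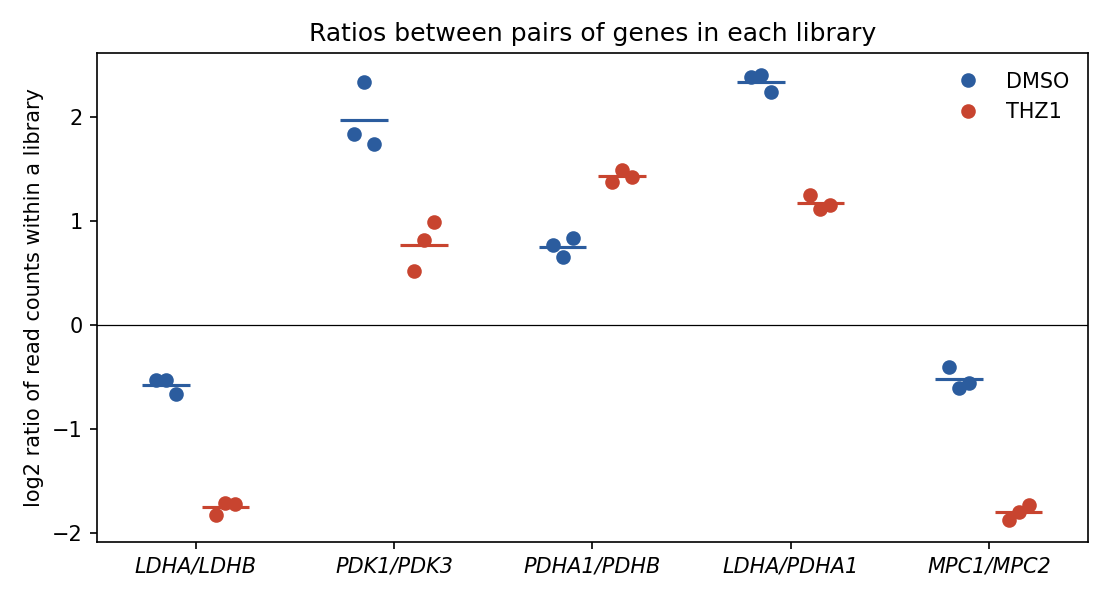
Log2 ratio of the counts of 2 genes within each library for the 5 ratios that could be computed, with DMSO-treated and THZ1-treated libraries as separate points. LDHA/LDHB, PDK1/PDK3, LDHA/PDHA1 and MPC1/MPC2 are lower in every THZ1-treated library and PDHA1/PDHB is higher.

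Of 6 ratios planned, 5 were computed, since SLC16A3 had a library at 0 counts. The last of them set 1 gene of the lactate branch against 1 gene of the acetyl-CoA branch. LDHA to PDHA1 counts went from 2.34 ± 0.09 to 1.17 ± 0.07 on the log2 scale. LDHA thus fell 2.24-fold further than PDHA1 (difference −1.17, SE 0.07). That holds for these genes only, since LDHB (−1.46) fell about as far as PDHA1 (−1.47) and less far than PDHB (−2.14). In sum, LDHA and LDHB kept 28.2% of their DMSO level, and PDHA1 and PDHB kept 31.1%. In each of the 5 ratios the treatments did not overlap, and each had an exact permutation p of 0.1, also after Benjamini-Hochberg adjustment over the 5, so that no ratio can pass a threshold of 0.05 in this design. Separation is common in these data, since 41.3% of all single genes tested had no overlap and were lower, and 43.4% were higher. The share over ratios of other gene pairs was not computed, so the separation of these 5 is no mark of them. With 1 library left out at a time the differences ranged from −1.22 to −1.14 for LDHA/LDHB, from 0.63 to 0.72 for PDHA1/PDHB and from −1.32 to −1.02 for PDK1/PDK3.

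Levels can be compared between genes in the second deposited table, which lists FPKM, a level per transcript length, on a log2 scale for 9 of the 10 genes, without LDHB. With DMSO, PKM was highest (485 ± 6.68 FPKM), then LDHA (316 ± 8.83), SLC16A1 (84.0 ± 7.84), PDHA1 (81.6 ± 5.99), MPC1 (51.6 ± 7.45), PDHB (45.2 ± 1.69), PDK1 (7.98 ± 0.479), PDK3 (2.88 ± 0.387) and SLC16A3 (0.478 ± 0.177). SLC16A1 and PDHA1 overlapped, as did MPC1 and PDHB, and the other neighbours were apart. The SLC16A3 value is no measure of a level, since PKLR, at 0 counts in each DMSO-treated library, is listed at 0.262 FPKM. With THZ1, PKM stayed highest (284 ± 3.91 FPKM) but SLC16A1 (60.7 ± 2.47) now stood above LDHA (45.9 ± 0.825), followed by PDHA1 (26.9 ± 1.22), PDHB (8.51 ± 0.362), MPC1 (8.32 ± 0.597), PDK1 (1.31 ± 0.161), SLC16A3 (1.04 ± 0.301) and PDK3 (0.650 ± 0.143). There PDHB and MPC1, PDK1 and SLC16A3, and SLC16A3 and PDK3 overlapped. The order of the kinases depends on the transcript length used: dividing CPM by the length of the GENCODE canonical transcripts, of 14072 bases for PDK1 and 1741 for PDK3, gave 2.73 ± 0.254 CPM per kb for PDK1 and 5.65 ± 0.782 for PDK3 with DMSO. On that scale LDHB (751 ± 74.0 CPM per kb) stood above PKM (608 ± 43.0) and LDHA (292 ± 14.1) with DMSO, and PKM (438 ± 7.88) above LDHB (273 ± 12.2) with THZ1.

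**Figure D4:**
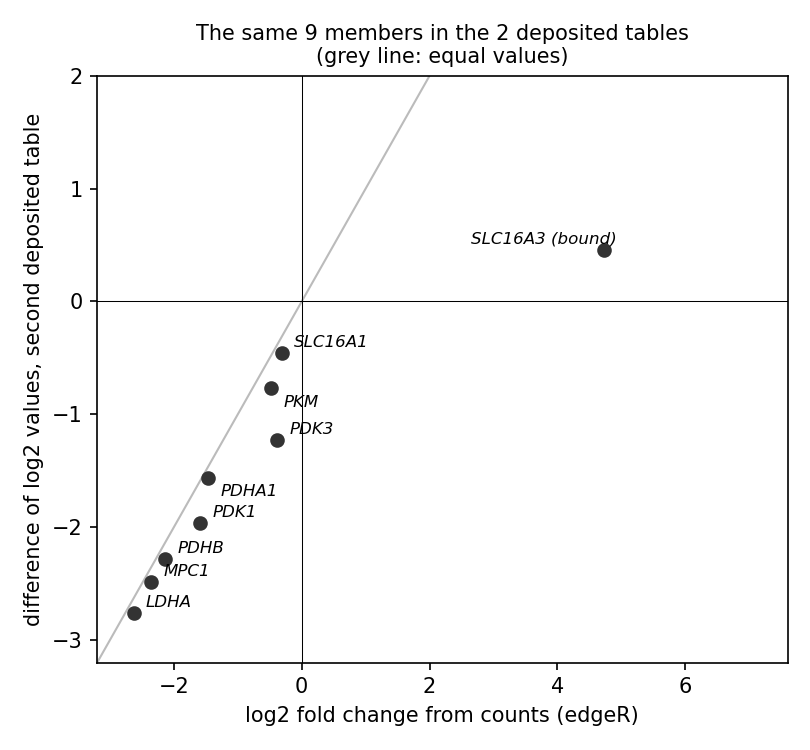
Difference between treatments in the second deposited table (log2 values) against the log2 fold change from the counts, for the 9 genes in both, with the line of equal values in grey. PKM, LDHA, SLC16A1, PDHA1, PDHB, PDK1 and MPC1 lie a little below the line, PDK3 lies further below, and SLC16A3 is drawn at its lower bound from the counts.

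The tables gave the same direction for these 9 genes, at different sizes. LDHA differed by −2.76 in the log2 FPKM values against −2.63 in the counts, and PKM by −0.77 against −0.47. PDK3 stood out in the log2 FPKM values as deposited, with −1.23 against −0.38 in the counts. Its FPKM did not overlap between treatments (2.43 to 3.10 with DMSO and 0.487 to 0.751 with THZ1). That depends on the scale, since values read as log2(FPKM + 1) shrink the differences of low genes. With a pseudocount of 0.1, PDK3 differed by −1.999, and PDK1 by −2.53 against −1.59 in the counts. SLC16A3 was listed at 0.594, 0.565 and 0.275 FPKM in the DMSO-treated libraries, where the count table has 1, 1 and 0 counts, and at 1.18, 0.693 and 1.25 FPKM with THZ1. The second table holds values above 0 also at 0 counts. PKLR, at 0 counts in each DMSO-treated library, had log2 values of 0.3335, 0.3228 and 0.3501, and SLC16A3 had 0.3501 in DMSO-treated library 3. The DMSO values of SLC16A3 there thus lie at or near what 0 counts give. On the log2(FPKM + 1) scale, which understates low genes, SLC16A3 differed by 0.46, and with a pseudocount of 0.1 by 0.99 with an adjusted p of 0.053 by limma. Both differences are set against that level.

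The other genes of pyruvate and lactate metabolism, 26 in a list written from general knowledge, moved in both directions. Of them 19 were tested, and 11 were called lower (57.9%) and 5 higher, with 3 not passing the test and a median log2 fold change of −0.76, beside 41.1% lower and 43.5% higher over all genes and 50.6% lower for genes of at least 10 CPM. For 4 of these genes the filter on low counts set the direction, since PKLR, LDHD and GPT passed it only through THZ1 and SLC16A7 only through DMSO. Of the 15 that passed it in both treatments, 10 were lower (66.7%) and 2 higher (13.3%), against 47.2% and 35.2% of all such genes. Besides the genes already described, the largest fall was that of ME2, the mitochondrial malic enzyme that makes pyruvate from malate, from 118 ± 3.49 to 13.4 ± 1.64 CPM (−3.13, SE 0.10, adjusted p = 4e-23, edgeR). GPT2, the mitochondrial alanine aminotransferase, which interconverts pyruvate and alanine, fell from 144 ± 6.08 to 41.3 ± 4.27 CPM (−1.80, SE 0.08, adjusted p = 8e-19). GPT, its cytosolic counterpart, was at 13, 8 and 9 counts with DMSO and 178, 140 and 161 with THZ1 (0.830 ± 0.218 and 21.4 ± 2.02 CPM).

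Of the other isozymes, PKLR and LDHD did not exceed 3 counts in any DMSO-treated library and are given as values without a test. PKLR, the pyruvate kinase of liver and red cells, had 0 counts in each DMSO-treated library and 21, 19 and 13 with THZ1, at least 9.54-fold higher. LDHD, the mitochondrial D-lactate dehydrogenase, had 1, 0 and 2 counts with DMSO and 34, 32 and 23 with THZ1, at least 16.0-fold higher. Both stayed far below the main forms, with 2.38 ± 0.557 CPM for PKLR against 1010 ± 18.2 for PKM. LDHC, LDHAL6A, LDHAL6B, SLC16A8, PDK4, ME1 and PCK1 were too low to be tested. Among them LDHAL6A had 4, 6 and 1 counts with DMSO and 0 in each THZ1-treated library.

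**Figure D5:**
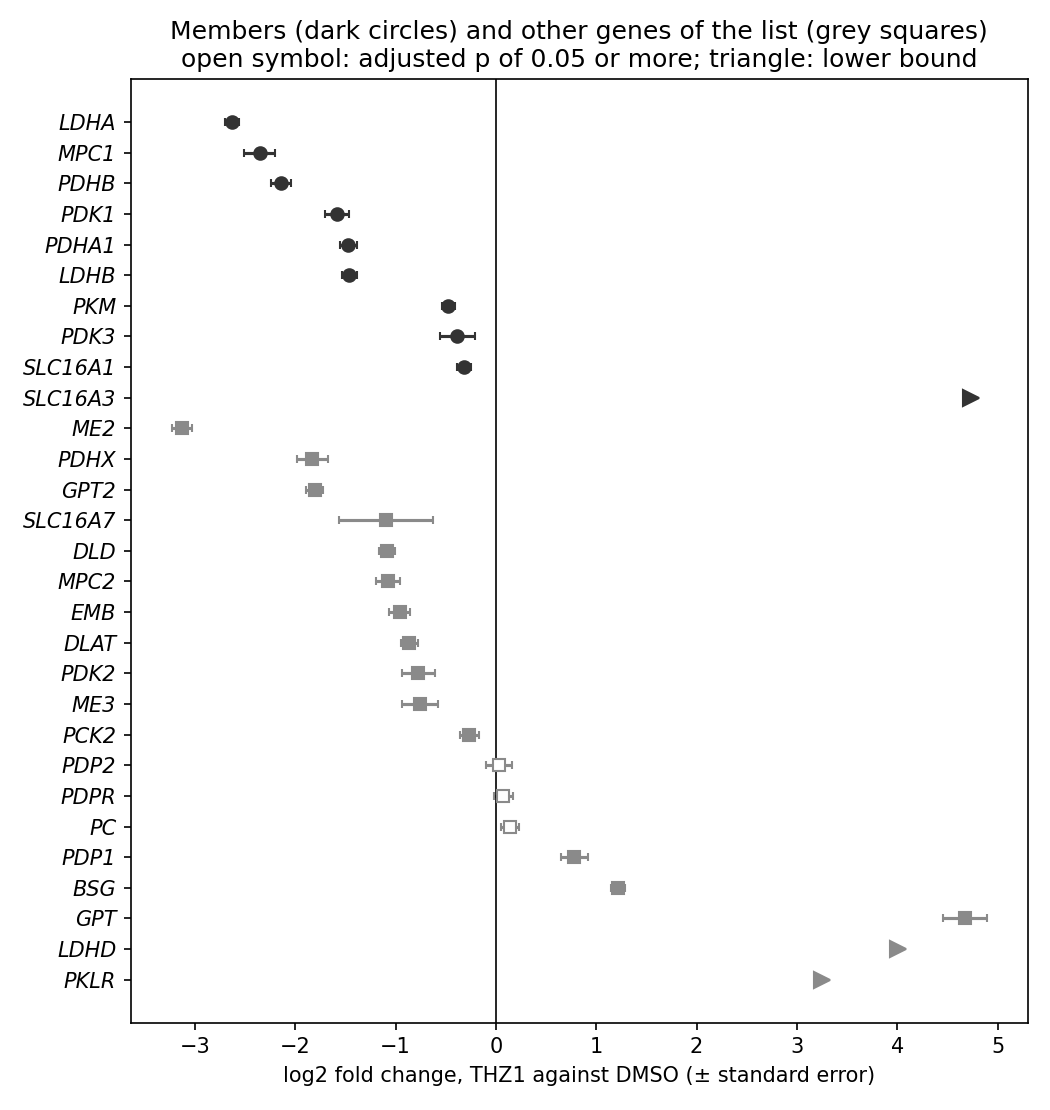
Log2 fold changes with THZ1 against DMSO, with standard errors, of the 10 genes (dark circles) and of the 19 other tested genes of the pathway (grey squares), open where the adjusted p is 0.05 or more. Triangles mark lower bounds for SLC16A3, LDHD and PKLR, and LDHA (−2.63) and ME2 (−3.13) are the lowest of their groups.

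Near-identical copies took few counts. The processed pseudogenes named after PKM (5 genes), LDHA (6) and LDHB (3) held at most 0.274%, 0.125% and 0.038% of the parent's counts in any library. PDHA1P1 held 0 to 9 counts, at most 2.67% of PDHA1, and the copies of SLC16A1 and PDK1 held 0.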

How the data were processed

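RNA-SEQ was measured in 3 DMSO-treated and 3 THZ1-treated NALM6 libraries. The authors filtered the reads, mapped them to GRCh37 with STAR and made raw counts per gene with htseq-count, which were used as deposited. The submitters' processing notes also name cutadapt and RSEM. The annotation, the strand setting and the tool versions of the counting are not given in the sources used here. A second table, which the authors made with RSEM, holds FPKM deposited on a log2 scale for 16730 genes, read here as log2(FPKM + 1), although the design had assumed linear values. Within a treatment its sorted values are nearly equal between libraries, a step the sources do not describe. It also holds the authors' log2 fold changes, p-values and FDR values, which were not used.

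A filter on low counts (filterByExpr, with a minimum count of 10 and a total of at least 15) left 16622 genes, which were TMM-scaled and tested by the two-sided quasi-likelihood test of edgeR. All p-values were adjusted over those genes by Benjamini-Hochberg. Standard errors come from the log2 fold change and its F statistic. Where all libraries of a treatment had 3 counts or fewer, a bound against 3 counts per library replaces the fold. Ratios within a library were tested by exact permutation. Replicates differed beyond sampling noise (chi-square per gene of 1.79 to 9.53). The named genes are the 10 genes, the 3 highest and 3 lowest other pathway genes past the threshold, the partners of the complexes, the kinases, phosphatases and BSG, with MYC and HIF1A. EMB, SLC16A7, single cell type markers, the genes not tested, and the overlapping and neighbouring genes were named outside that rule. The genes and lists were chosen with earlier results of these data known. Alternatives were other scalings, DESeq2, other filters, a replicate block, each library left out, and limma on the deposited log2 values. Gene positions come from GENCODE 44 lifted to GRCh37 and promoters from RefSeq. The scripts were tested on simulated data. R 4.3.3, edgeR 4.0.16, limma 3.58.1, DESeq2 1.42.0 and Python 3.11.15 were used.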

Additional observations from a re-analysis of the deposited data

How the results depend on the processing

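Of 155 values of the 10 genes under alternatives, 145 kept direction and side of the threshold, 10 lost the call and 0 reversed, and 7 genes lost no call. The number of the 10 genes lower was 7 to 9, and 8 to 9 with 1 library left out. The number higher was 0 with at least 10 counts in every library, where SLC16A3 was not tested, 0 with limma and a mean FPKM of at least 1, where it was not tested either, and 0 with limma and a pseudocount of 0.1 (0.99, adjusted p = 0.053), and 1 with any 1 library left out. Of the other pathway genes, 3 were higher with at least 10 counts in every library, 8 with no filter, 3 with limma and a mean FPKM of at least 1, and 5 to 6 with 1 library left out. PDK3 lost its call in 8 of 16 alternatives (−0.32 with RLE factors, −0.19 with upper quartile factors, −0.32 with DESeq2, −0.25 with at least 10 counts, −0.38 with the replicate block), and its range was −1.999 to −0.19. SLC16A1 lost it with upper quartile factors, and SLC16A3 with limma and a pseudocount of 0.1. The log2 fold change of PDP2 turned to −0.22 with library sizes alone, −0.055 with no filter, −0.09 without DMSO-treated library 3, −0.11 without THZ1-treated library 2, and −0.48, −0.54 and −0.48 with limma on the deposited values (pseudocount 1, 0.1, and mean FPKM of at least 1). PDPR turned to −0.175 with library sizes alone, −0.010 with no filter, −0.067 without DMSO-treated library 3 (−0.067 to 0.196 with any 1 library left out) and −0.033 with limma under each of its settings, and PC to −0.10 with library sizes alone. PC was called higher with RLE factors (0.21), upper quartile factors (0.34), at least 10 counts (0.28) and without DMSO-treated library 3 (0.19), PDPR with upper quartile factors (0.27) and without DMSO-treated library 2, and PDP2 lower under each limma setting. Over all genes, 5421 to 7985 were lower and 5151 to 9944 higher. PDP1 lost its call with limma (0.31 to 0.34), PCK2 in 5 alternatives and SLC16A7 in 6. The cause was not tested. In FPKM the difference in ratio was −0.46 for PDK1/PDK3, 0.81 for PDHA1/PDHB and −1.42 for MPC1/MPC2. Against TMM, the median over all genes shifted by 0.19 with upper quartile factors, −0.25 with library sizes alone, 0.13 with at least 10 counts, and −0.26 to −0.31 with limma on the deposited values. The replicate numbers did not pair the libraries (correlations of −0.004 to 0.02 for the same number). With the replicate block 8 of the 10 genes were lower and 1 higher, and 10 of the other pathway genes were lower and 5 higher.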
